A study of Mus musculus with 2 samples.

Results

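Il1b, Il1a, Tnf, Il23a, Il6, Il12b, Nos2, Cxcl1 and Cxcl2, 9 genes for inflammatory signals best known from myeloid cells, were followed across the leukocyte classes of mouse colorectal tumors. The genes were chosen by name from the 30905 genes of the count tables, with earlier results from the same libraries known, so their values are a description of these libraries. All 9 were found in the tables. Leukocytes (CD45+ cells) were sorted from colorectal tumor tissue of male C57BL/6 mice and profiled by droplet single-cell RNA-seq, in which each captured transcript is counted once through a molecular tag (UMI). The mice behind the first library received FMD, the fasting mimicking diet, which is low in calories and meant to imitate a fast. Those behind the second ate ad libitum. Each library pooled 4 mice whose ages were not given. Tumors had been induced in both groups with AOM (azoxymethane, 12 mg/kg), which mutates colon epithelium, and then with DSS (dextran sodium sulfate, 2.5%, 3 cycles), which causes colitis. DSS was in the water for 7 days of a cycle and plain water followed for 14 days, and the diets began with cycle 2. Each diet therefore has 1 library and no replicate. Differences are between these libraries, none has a test, and the brackets below are exact 95% intervals that cover counting error only, not the spread between mice or cells.

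IL-1α and IL-1β act through the same receptor, and IL-1β is made as a precursor that caspase-1 cuts in the inflammasome. TNF, IL-1 and bacterial products activate the transcription factor NF-kB, which switches on most genes of this group. Il23a and Il12b encode the subunits that pair to form IL-23, a cytokine that sustains type 17 lymphocytes in the gut. IL-6 signals through STAT3 and promotes the growth of colitis-associated tumors in mice. Nos2 encodes the inducible nitric oxide synthase, and CXCL1 and CXCL2 attract neutrophils through the receptor CXCR2.

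After filtering, 4575 cells were kept in the FMD library and 4839 in the ad libitum library, with medians of 5726 and 5496 UMIs per cell, and 7 cell barcodes occurred in both. Cells were clustered without the 9 genes, and a class is called X-like because it was named from marker lists. The myeloid classes were small. There were 49 FMD and 68 ad libitum neutrophil-like cells, and S100a9 was detected in 98.0% and 98.5% of them. Monocyte or macrophage-like cells numbered 53 and 24, and 90.6% and 95.8% of them held Csf1r. Clusters named monocyte and those named macrophage were set in advance to share this class. The 1 sub-cluster in it had alike monocyte and macrophage marker scores, 1.78 and 1.75. C1qa, a defining macrophage gene, was found in 18.9% of the FMD and 4.17% of the ad libitum cells of that class. Levels are given as CPM, UMIs of the gene per 1000000 UMIs outside immunoglobulin and mitochondrial genes, summed over the cells of a class. The summed level of the 14 macrophage markers was 2765 CPM in FMD and 1127 in ad libitum cells, and that of the 12 monocyte markers was 5577 and 6513. CCR7+ dendritic markers, 4 and 6 of 8 detected, summed to 334 CPM in FMD and 911 in ad libitum, of which Ccr7 alone made up 162 and 736. Macrophage markers were thus lower and CCR7+ markers higher in the ad libitum cells, and the part of these shifts in the differences below was not tested. The 89 FMD and 65 ad libitum dendritic-like cells joined 4 sub-clusters, and 12 basophil-like and 12 mast-like cells were found over both libraries. A ratio is the log2 of the FMD level divided by the ad libitum level.

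The 9 genes did not share a single source. Over both libraries, dendritic-like cells held 38.3% of Il1b UMIs, neutrophil-like cells 29.6% and monocyte or macrophage-like cells 21.8%. Il1a came almost wholly from monocyte or macrophage-like (60.8%) and neutrophil-like cells (35.0%). The T-like classes, pooled and with far more cells, held 39.2% of Tnf. Single myeloid classes each held less, with 20.3% in monocyte or macrophage-like, 14.6% in neutrophil-like and 7.2% in dendritic-like cells. The myeloid classes were not pooled here, so these shares do not rank T-like against myeloid cells. By library, T-like cells held 47.3% of Tnf in FMD and 33.3% in ad libitum. Monocyte or macrophage-like cells held 5.57% and 30.9%, and neutrophil-like cells 7.38% and 19.8%. The dendritic-like share was instead lower in ad libitum, as was that of basophil-like and mast-like cells. These shares depend on cell numbers as well as levels. Basophil-like and mast-like cells, 24 cells in all, held 80.1% of Il6. The class with most Cxcl1 differed by library, with 71.1% in FMD and 14.7% in ad libitum in innate lymphoid-like cells, and 16.9% and 60.6% in monocyte or macrophage-like cells. Neutrophil-like cells held 59.0% of Cxcl2. Il12b had 12 UMIs and Nos2 54 UMIs in all kept cells.

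**Figure D1:**
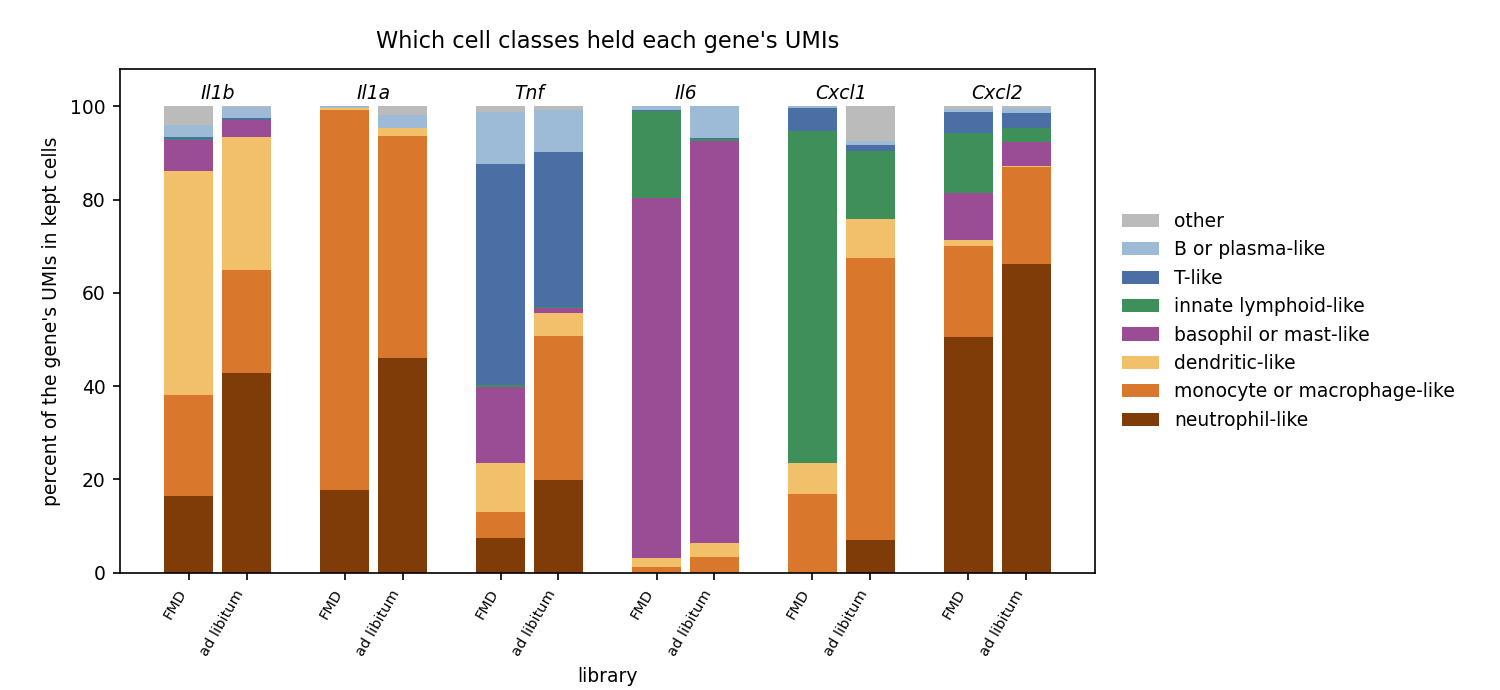
Percent of each gene's UMIs in kept cells (y axis) that lay in each class of cells, for the 6 genes with the most UMIs, FMD library left of the ad libitum library. The dendritic-like share of Il1b was 48.0% in FMD and 28.5% in ad libitum, and the neutrophil-like share was 16.5% and 42.9%.

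**Figure D2:**
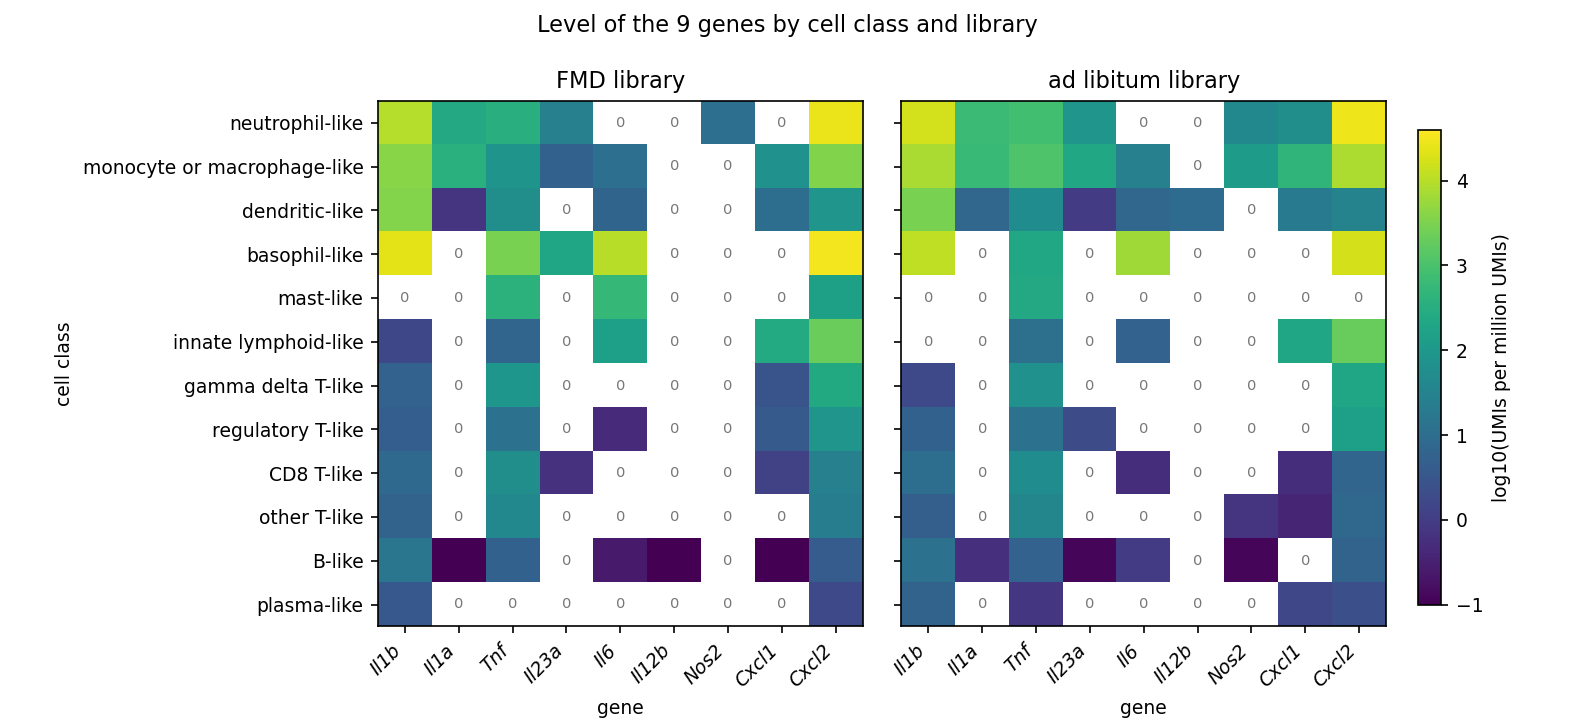
Level of the 9 genes (columns) by cell class (rows) as log10 of CPM, FMD library left and ad libitum library right; 0 marks no UMI. Il1b and Cxcl2 were at their highest in neutrophil-like and basophil-like cells, and Il6 in basophil-like cells.

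Il1a and Il1b lie 54.6 kb apart on chromosome 2 and are read from the same strand. Their promoters, RefSeq sequence of build GRCm38.p6, are shown because these neighbors encode ligands of the same receptor yet had unlike levels in dendritic-like cells. Each line gives the 120 bases before the start site, 5′ to 3′ on the minus strand, and capitals mark TATAAA, searched on both strands. Il1a is the window chr2:129309973-129310092 and Il1b the window chr2:129371140-129371259.
Il1a: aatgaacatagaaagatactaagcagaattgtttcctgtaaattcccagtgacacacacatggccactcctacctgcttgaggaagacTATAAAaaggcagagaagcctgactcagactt
Il1b: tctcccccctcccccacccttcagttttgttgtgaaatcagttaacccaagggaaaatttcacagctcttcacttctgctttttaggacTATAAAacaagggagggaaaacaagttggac
Both hold TATAAA, 32 bases before the start of Il1a and 31 before that of Il1b, as do 6.35% of all 32817 promoters over the same length. A match is a description of these letters and not evidence of a working site.

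Il1b had 1721 UMIs in the 49 FMD neutrophil-like cells, against 4377 UMIs in the 68 ad libitum cells. As levels this was 9583 [9135, 10046] CPM in FMD and 16399 [15916, 16892] in ad libitum neutrophil-like cells, a log2 ratio of −0.78 [−0.86, −0.69]. Nearly every neutrophil-like cell held the transcript, 49 of 49 and 66 of 68, with medians of 26 and 43 UMIs per cell. Monocyte or macrophage-like cells showed the same direction, with 4101 CPM in FMD and 7569 in ad libitum cells, a ratio of −0.88 [−0.97, −0.80]. With few cells in the class this value moved, to −0.19 with a mitochondrial limit of 10%, −0.06 at a finer clustering and −0.35 without the top 3 cells of each library. Dendritic-like cells were at 3569 in FMD and 2936 in ad libitum cells, a ratio of 0.28 [0.22, 0.35] whose sign was not stable. It was −0.14 at the finer clustering, −0.08 with a mitochondrial limit of 10% and −0.02 with thinned cells. In the dendritic cDC2-like sub-cluster, led by MHC class II genes and Il1r2, Il1b was at 4305 CPM in the 55 FMD cells and 4857 in the 25 ad libitum cells. In the cDC1-like sub-cluster it was at 2435 in 22 FMD cells and 1030 in 21 ad libitum cells, and in that led by Cxcl9 at 2729 in 4 FMD cells and 4144 in 11 ad libitum cells.

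Il1b was rare in B-like cells, though the highest of them held 22 UMIs in FMD and 23 in ad libitum. After each cell was thinned to 1000 UMIs, 88.9% [75.9, 96.3] of FMD and 96.9% [89.3, 99.6] of ad libitum neutrophil-like cells held an Il1b UMI. The share was 1.07% and 0.88% in B-like cells, whose median depths of 5191 and 5059 UMIs lay above the 3683 and 3810.5 UMIs of neutrophil-like cells. The B-like level was 16.2 CPM in FMD and 12.9 in ad libitum cells, or 0.169% and 0.0787% of the neutrophil-like level. B-like cells held 516 Il1b UMIs per 100 S100a9 UMIs in FMD and 157 in ad libitum, against 13.9 and 20.9 in neutrophil-like cells, so the genes were not in 1 ratio across the classes. Monocyte or macrophage-like cells, also rich in Il1b, had S100a9 at 1.8 CPM in FMD and 13.5 in ad libitum. The source of the Il1b UMIs in B-like cells was not tested.

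Il1a was rare per cell and uneven. Neutrophil-like cells held 42 UMIs in FMD, in 9 of 49 cells, and 171 in ad libitum, in 15 of 68 cells. Their levels of 234 and 641 CPM gave a ratio of −1.45 [−1.98, −0.96]. This direction rested on a small sub-cluster of 1 FMD and 16 ad libitum cells, and without it the ratio turned to 1.48 [0.47, 2.58]. The turned ratio rested on few cells as well. It came from 30 UMIs in 8 of 48 FMD cells, 14 of them in 1 cell, and 12 UMIs in 5 of 52 ad libitum cells. Monocyte or macrophage-like cells held 193 UMIs in FMD and 177 in ad libitum, levels of 352 and 597, a ratio of −0.76 [−1.06, −0.46]. A single FMD cell held 110 of those 193 UMIs, and without the top cell of each library the ratio was −1.41. Dendritic-like cells, which were rich in Il1b, held 1 UMI of Il1a in 89 FMD cells and 7 UMIs in 65 ad libitum cells.

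Tnf in monocyte or macrophage-like cells had 43 UMIs in FMD and 332 in ad libitum, levels of 78.5 [56.8, 106] and 1120 [1003, 1248] CPM. The ratio was −3.84 [−4.33, −3.37], or 14.3-fold lower in FMD. The highest FMD cell held 7 UMIs, while 8 of the 24 ad libitum cells held at least 10 and the highest held 129. Without the top cell of each library the ratio was −3.38, and without the top 3 it was −3.02. Tnf stayed at least 2-fold lower under all 13 alternatives of processing, 3 of which do not touch this value, between −4.05 and −2.95. In neutrophil-like cells it was at 317 CPM in FMD and 798 in ad libitum, a ratio of −1.33 [−1.78, −0.90]. Without the small sub-cluster no 2-fold difference was left, with a ratio of 0.04. In dendritic-like cells the levels were 57.9 in FMD and 52.5 in ad libitum, a ratio of 0.14 [−0.38, 0.67].

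Lymphocytes are also a known source of TNF. Tnf in gamma delta T-like cells stood at 87.1 CPM in FMD and 67.7 in ad libitum, and in CD8 T-like cells 59.5 and 53.0. Other T-like cells had 40.6 and 37.9, regulatory T-like cells 12.3 and 12.9, and B-like cells 5.39 and 5.74. The ratios of these 5 classes lay between −0.09 and 0.36, and each interval held 0. No difference was detectable in these classes at this depth, with outermost interval bounds of −0.98 and 1.09.

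**Figure D3:**
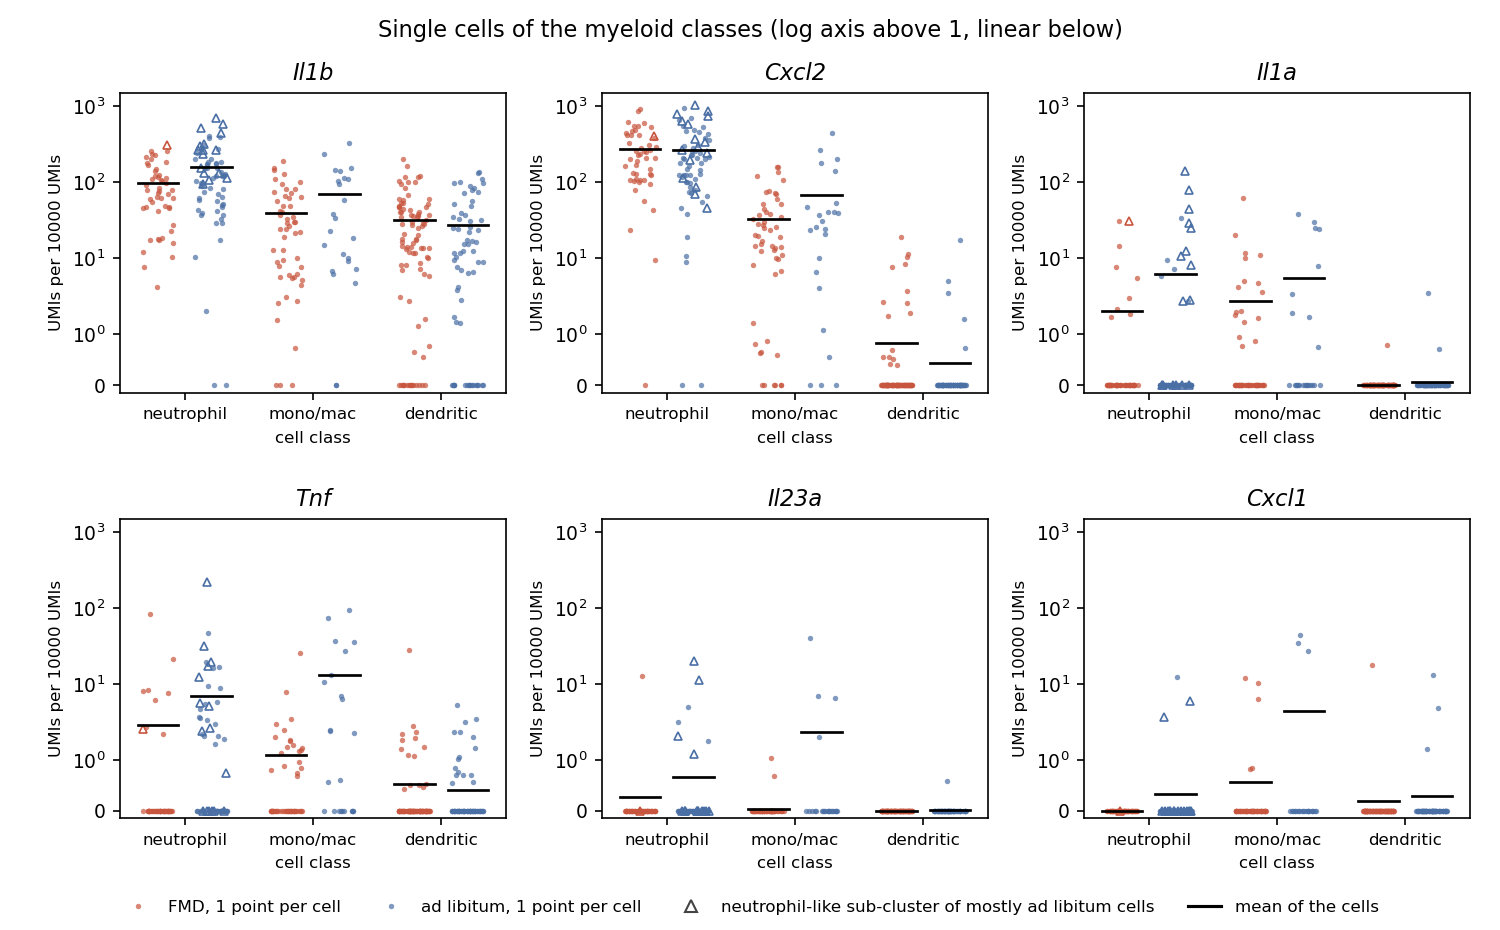
UMIs of 6 genes per 10000 UMIs in each cell (y axis, log above 1) of the neutrophil-like, monocyte or macrophage-like (mono/mac) and dendritic-like classes, FMD in red left of ad libitum in blue. Triangles are the neutrophil-like sub-cluster of 1 FMD and 16 ad libitum cells. Black lines are means over cells. In monocyte or macrophage-like cells, 20 FMD and 14 ad libitum points lie above 0 for Tnf, and 5 and 3 for Cxcl1.

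Il23a, the subunit specific to IL-23, was found in few cells. Monocyte or macrophage-like cells held 3 UMIs in 2 of 53 FMD cells and 65 UMIs in 4 of 24 ad libitum cells. The levels were 5.47 [1.13, 16.0] and 219 [169, 280] CPM, a ratio of −5.32 [−7.64, −3.71]. A single ad libitum cell held 46 of the 65 UMIs, and after the top 3 cells were taken off, no ratio could be given. Neutrophil-like cells held 5 UMIs in FMD, all in 1 cell, and 22 in ad libitum, in 7 cells, a ratio of −1.57 [−3.32, −0.13]. That ratio turned to 0.90 [−1.47, 3.58] without the small sub-cluster, on 5 FMD and 3 ad libitum UMIs. Without the top 3 cells of each library no FMD UMI was left, and the ratio was at most 0.16, a bound that gives no direction. Il12b, whose product is shared by IL-12 and IL-23, had 3 UMIs in FMD and 9 in ad libitum kept cells. The 9 lay in 2 of 8 ad libitum cells of the CCR7+ dendritic-like sub-cluster, the migratory state of dendritic cells. None was seen in the 8 FMD cells of that sub-cluster. A further 9 Il12b UMIs lay in FMD barcodes removed for their mitochondrial share, so over all barcodes the counts were 12 in FMD and 9 in ad libitum.

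Nos2 had 0 UMIs in the 53 FMD monocyte or macrophage-like cells and 35 in the 24 ad libitum cells. Taking 3 counts as the limit that a count of 0 allows, its level was at least 21.6-fold lower in FMD. However, 34 of the 35 UMIs came from 1 cell, and without it no ratio could be given. Neutrophil-like cells held 2 UMIs in FMD and 11 in ad libitum.

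Il6 UMIs lay mainly in basophil-like cells. The 7 FMD cells held 306 UMIs and the 5 ad libitum cells 206, and every one of the 12 cells had at least 1 UMI. Their levels were 10173 [9065, 11379] CPM in FMD and 6264 [5438, 7181] in ad libitum. This cluster was led by Il6, Ccl4, Ccl3, Il13 and Il4, and its basophil name rests on Mcpt8, Cd200r3 and Prss34, the last of which was found in 1 FMD and 1 ad libitum cell. None of these markers was among its 10 leading genes. Mcpt8 was also found in 7 of 9 FMD and 3 of 3 ad libitum mast-like cells. The basophil-like cells held Il1b at 23538 and 11403 CPM, and Cxcl2 at 31683 and 17485. A single cell held 568 of the 953 Cxcl2 UMIs in FMD and 453 of the 575 in ad libitum, and 8 of the 12 cells had any. Mast-like cells had 49 Il6 UMIs in 9 FMD cells and 0 in 3 ad libitum cells.

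Innate lymphoid-like cells, 80 in FMD and 24 in ad libitum, expressed Gata3 (in 97.5% and 95.8% of cells) and Il5 (in 46.2% and 45.8%), a factor and a cytokine of type 2 innate lymphoid cells. They held 86 Il6 UMIs in FMD and 1 in ad libitum, levels of 144 and 5.75 CPM and a ratio of 4.65 [2.13, 9.97]. A single FMD cell held 47 of the 86 UMIs, and 10 of 80 FMD cells and 1 of 24 ad libitum cells had any. Without the top cell of each library, which left 39 and 0 UMIs, the ratio was at least 1.92. With every cell thinned to 1000 UMIs, which left 0 UMIs in ad libitum, it was at least 0.49. Il6 was the 1 gene at least 2-fold higher in this class, of 3 that passed a minimum of 20 UMIs over both libraries. Il6 passed only through its FMD UMIs. Among all genes that passed there, 5.42% were at least 2-fold higher in FMD. Monocyte or macrophage-like cells had 6 Il6 UMIs in FMD and 8 in ad libitum, and neutrophil-like cells had 0 in both.

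Cxcl1 and Cxcl2 lie 10.8 kb apart on chromosome 5, on the plus strand. Their promoters are shown because both genes serve the same receptor and carry the same motif, while their main sources differed. Each line is 120 bases of RefSeq sequence, build GRCm38.p6, ending before the GENCODE start, which lies 4 bases before the RefSeq start in Cxcl1 and 28 in Cxcl2, and capitals mark matches to the NF-kB consensus on either strand, where a pair of overlapping matches forms the run of capitals. Cxcl1 is the window chr5:90891121-90891240 and Cxcl2 the window chr5:90903751-90903870.
Cxcl1: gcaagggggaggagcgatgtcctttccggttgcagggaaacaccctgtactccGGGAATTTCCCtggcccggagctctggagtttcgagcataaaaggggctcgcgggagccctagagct
Cxcl2: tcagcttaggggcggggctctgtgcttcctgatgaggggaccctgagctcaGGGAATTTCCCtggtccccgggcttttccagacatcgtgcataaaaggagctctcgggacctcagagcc
The letters GGGAATTTCC begin 71 bases before the RefSeq start of Cxcl1 and 97 before that of Cxcl2. They were found in 28 of 32817 promoters, 0.085%, when the 250 bases before the start were searched on both strands, and the wider NF-kB consensus in 3.90%. Il6 held a match to the consensus, GGGATTTTCC, 44 bases before its start. These letters were not found in the same window of Il1a, Il1b, Tnf or Il12b, which says nothing on binding elsewhere. RefSeq promoters were found for 7 of the 9 genes and not used here for Il23a and Nos2.

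Among the 9 genes, Cxcl2 in neutrophil-like cells had the highest level outside the basophil-like cells. There were 4869 UMIs in FMD and 7497 in ad libitum cells, levels of 27111 [26354, 27883] and 28088 [27456, 28731] CPM. The ratio of −0.05 [−0.10, 0.00] was close to 0, and outside the small sub-cluster it was 0.25 [0.19, 0.31]. In monocyte or macrophage-like cells Cxcl2 was at 3409 in FMD and 7974 in ad libitum, a ratio of −1.23 [−1.31, −1.14]. That difference rested on few cells, since 3 of the 24 ad libitum cells held 69.9% of the UMIs, and without the top 3 cells of each library the ratio was −0.05. In dendritic-like cells the levels were 85.0 in FMD and 31.3 in ad libitum, a ratio of 1.44 [0.86, 2.06]. This ratio took the other sign when the mitochondrial limit was 10% or the cells were clustered at a finer resolution. Innate lymphoid-like cells were at 2088 in FMD and 1967 in ad libitum, a ratio of 0.09 [−0.09, 0.26].

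Cxcl2 also differed between T-like classes. Other T-like cells had 124 UMIs in FMD and 39 in ad libitum, levels of 23.5 and 7.28 and a ratio of 1.69 [1.16, 2.25]. A single FMD cell held 58 of the 124 UMIs, and with cells thinned to 1000 UMIs the ratio was 0.50. CD8 T-like cells had 44 and 12 UMIs, a ratio of 2.07 [1.13, 3.13], with 20 of the 44 in 1 cell, and without the top 3 cells the ratio was −0.61. Regulatory T-like cells had 172 UMIs in FMD and 212 in ad libitum, levels of 81.3 and 144 and a ratio of −0.83 [−1.13, −0.53], which was 0.54 with classes from marker scores and −1.44 with thinned cells. Of all genes that passed 20 UMIs, 1.28% in other T-like and 1.42% in CD8 T-like cells were at least 2-fold higher in FMD. In thinned cells Cxcl2 was found in 1.35% of FMD and 0.914% of ad libitum other T-like cells, against 0.518% and 0.472% of B-like cells, where the levels were 4.33 and 6.22 CPM.

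Cxcl1 was made by a small number of cells. Monocyte or macrophage-like cells held 38 UMIs in 5 FMD cells and 140 UMIs in 3 ad libitum cells, levels of 69.3 [49.1, 95.2] and 472 [397, 557] CPM. The ratio was −2.77 [−3.33, −2.24], and without the top cell of each library it was −2.75. Since the 3 ad libitum cells held every Cxcl1 UMI of their group, nothing was left without the top 3. Innate lymphoid-like cells held 160 UMIs in 11 of 80 FMD cells and 34 in 3 of 24 ad libitum cells, a ratio of 0.46 [−0.09, 1.03]. Neutrophil-like cells had 0 UMIs in FMD and 16 in ad libitum.

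Counted by class, 5 of the 7 genes that passed 20 UMIs in monocyte or macrophage-like cells were at least 2-fold lower in FMD (Tnf, Il23a, Nos2, Cxcl1 and Cxcl2), and none was 2-fold higher. Of all 4649 genes that passed in that class, 3.79% were at least 2-fold lower and 6.47% at least 2-fold higher. Il23a and Nos2 passed only through their ad libitum UMIs and had to be counted as lower, so the count of 5 is no support for a shared direction. When cells were clustered at the finer resolution, 20 ad libitum cells fell into the class in place of 24 and the count was 2, with Tnf at a ratio of −3.34. Without the top 3 cells of each library the count was 1, which was Tnf.

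In neutrophil-like cells 3 of 5 genes were at least 2-fold lower in FMD (Il1a, Tnf and Il23a) and 0 higher, where 8.08% of 2091 genes were lower and 4.69% higher. Il23a passed only through its ad libitum UMIs, so its place in that count was fixed by the minimum. These neutrophil-like cells fell into a pair of sub-clusters. The smaller, led by Tnfaip2, Upp1 and Il1a, held 1 FMD and 16 ad libitum cells, and with 1 library per diet it cannot be told whether it is a cell state or a property of that library. Its ad libitum cells held 159 of the 171 Il1a UMIs, 152 of the 213 Tnf UMIs and 19 of the 22 Il23a UMIs. The larger sub-cluster had 48 FMD and 52 ad libitum cells. In it, Il1a was at 171 CPM in FMD and 61.1 in ad libitum, from 30 and 12 UMIs, a ratio of 1.48 [0.47, 2.58]. There Tnf was at 319 and 311, a ratio of 0.04 [−0.51, 0.58], and Il1b at 9104 and 12018, a ratio of −0.40 [−0.49, −0.31]. Of the 3 genes counted above, none was 2-fold lower in the larger sub-cluster.

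In dendritic-like cells 1 of 4 genes, Cxcl2, was at least 2-fold higher and 0 lower, where 2.57% of 7419 genes were higher and 6.0% lower. At the finer clustering, with 86 FMD and 68 ad libitum cells in the class, 7 genes were counted as lower. The share of all genes was not taken at that clustering, so the 7 cannot be read against 6.0%. Ad libitum cells there went from 65 to 68 in this class and from 24 to 20 in the monocyte or macrophage-like class. Whether cells that changed class made this count was not tested. Epithelial markers summed to 53.6 CPM in FMD and 585 in ad libitum dendritic-like cells, and B cell markers to 102.2 and 17.2, whose part in these values was not tested. In B-like cells Il6 was lower by count, with 4 UMIs in FMD and 16 in ad libitum, where 0.997% of 11033 genes were lower. A single ad libitum cell held 12 of those 16 UMIs. Il6 reached the minimum of 20 UMIs in B-like cells only through its ad libitum UMIs, so its place as lower was fixed by the minimum.

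**Figure D4:**
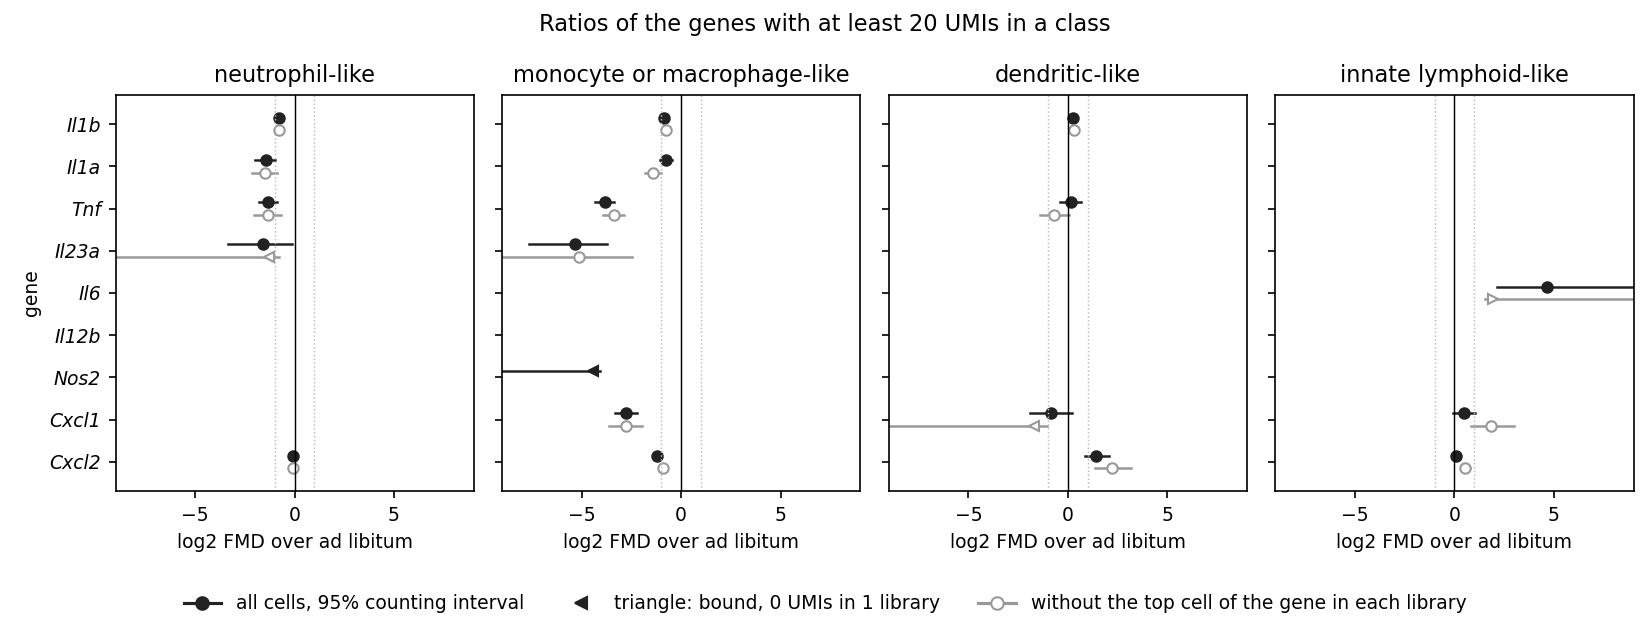
Log2 ratio of FMD over ad libitum (x axis) for the genes with at least 20 UMIs in a class, with exact 95% counting intervals, for all cells (black) and without the top cell of each gene in each library (grey). Dotted lines mark 2-fold, triangles are bounds where a library had 0 UMIs, and intervals reaching the frame run past it. In monocyte or macrophage-like cells the black point of Tnf lies at −3.84 and that of Cxcl2 at −1.23.

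Neutrophil-like and monocyte or macrophage-like cells often held several of the genes together. The median number detected per neutrophil-like cell was 2 in FMD and 3 in ad libitum cells, and 5 of 49 FMD and 17 of 68 ad libitum cells held at least 4. Among monocyte or macrophage-like cells, 13 of 53 in FMD and 8 of 24 in ad libitum held at least 4. All 4 ad libitum cells of that class with Il23a also held Il1b, Il1a, Tnf and Cxcl2, and all 3 with Cxcl1 also held Il1b, Il1a and Tnf. The detection of several genes in a cell also depends on its depth, whose part was not tested.

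Genes around the 9 were read through 10 pathway lists, some of which hold members of the 9. In monocyte or macrophage-like cells, 9 of 20 other inflammatory outputs were at least 2-fold lower in FMD and 0 higher, against 3.79% lower and 6.47% higher over all genes of the class. Their median was −0.83, against 0.10 over all genes. Among them, the chemokine Ccl4 had 200 UMIs in FMD and 615 in ad libitum, a ratio of −2.51 [−2.74, −2.27], and Ptgs2, the enzyme that starts prostaglandin synthesis, had 191 and 317, a ratio of −1.62 [−1.88, −1.35]. Il10, an anti-inflammatory cytokine, was lower too, with 5 UMIs in 4 FMD cells and 51 in 4 ad libitum cells. Il10 passed only through its ad libitum UMIs, so its place in the count of 9 was fixed by the minimum. That count was not repeated without the top cells and is no support for a shared direction. Thbs1, an extracellular matrix glycoprotein of the same list, was higher below the 2-fold mark, at 7442 CPM in FMD and 4346 in ad libitum, a ratio of 0.78 [0.69, 0.87]. Of the CXCR2 list 4 of 10 genes passed, and Cxcl3, a further CXCR2 ligand, was lower beside Cxcl1 and Cxcl2, with a ratio of −2.09 [−2.46, −1.72].

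Lists of sensing and signaling genes were read against the same shares, 3.79% lower and 6.47% higher. None of 16 NF-kB factors and inhibitors, 11 pattern receptors and 10 mRNA decay genes that passed in monocyte or macrophage-like cells was 2-fold apart. The list medians were −0.04, −0.10 and 0.18, and the counts of 0 were not tested against those shares. The IL-1 list had 1 of 16 genes at least 2-fold lower, Il1rn, the receptor antagonist, with levels of 788 in FMD and 1681 in ad libitum and a ratio of −1.09 [−1.28, −0.90]. Nlrp3, the inflammasome sensor, was at 412 in FMD and 354 in ad libitum, a ratio of 0.22 [−0.12, 0.57]. In the nitric oxide and arginine list, Acod1, which makes itaconate, was lower with a ratio of −2.43 [−2.75, −2.11]. Arg1, which competes with Nos2 for arginine, had 90 UMIs in FMD and 0 in ad libitum, but 83 of them lay in 1 cell. In the TNF list 1 of 12 genes was higher (Traf2) and 2 lower (Tnf and Birc2), in the IL-6 list 1 of 7 was lower (Jak2), and in the IL-12 and IL-23 list 2 of 5 were lower (Il23a and Jak2).

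In neutrophil-like cells, 3 of 15 other outputs that passed were lower (Cxcl3, Cxcl10 and Saa3) and 2 higher (Thbs1 and Vegfa), against 8.08% lower and 4.69% higher over all genes. Cxcl10, an interferon-induced chemokine, had 9 UMIs in FMD and 259 in ad libitum, and of the 259 only 10 lay outside the smaller sub-cluster. Saa3, an acute-phase protein gene, had 4 UMIs in FMD and 135 in ad libitum, and outside that sub-cluster 4 and 71. Cxcl10 and Saa3 passed only through their ad libitum UMIs, so their place in the count of 3 was fixed by the minimum. Thbs1 was at 2734 CPM in FMD and 835 in ad libitum, a ratio of 1.71 [1.48, 1.95], and 1.41 outside the sub-cluster. In dendritic-like cells 5 of 16 outputs were higher (Ccl2, Ccl3, Ccl5, Osm and Thbs1) and 2 lower (Cxcl9 and Cxcl10), against 2.57% higher and 6.0% lower over all genes. These counts were not repeated without the top cells or at the finer clustering and are no support for a shared direction. Il1r2, the decoy receptor for IL-1, was at 2298 in FMD and 1397 in ad libitum dendritic-like cells, a ratio of 0.72 [0.63, 0.81]. Of the dendritic-like sub-clusters, that led by Cxcl9 and Cxcl10 held 4 FMD and 11 ad libitum cells.

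Genes most like each member were sought by Pearson's r of log2 levels over 20 points, the 10 larger classes in each library, among 10636 genes. Points of a library share its preparation and points of a class its cell type, so r is a description. Il1b was most like Ptafr (r = 0.988), the receptor of platelet-activating factor, and Pira2 and Tnfaip2 followed. Il1a was most like Pla2g7 (0.992), C3 and Arg2, and Il23a like Saa3 (0.938), Il1a and Mmp8. Cxcl2 was most like Dusp1 (0.906), a phosphatase gene of the immediate early response, then Stk40 and Mxd1. Tnf, with its lymphocyte share, was most like Lfng (0.897), Orai2 and Slfn2. Il6 and Cxcl1 were each among the 3 genes most like the other (0.826), and Stxbp6 led both lists. Basophil-like and mast-like cells were too few to be points, so this rests on 139 of the 700 Il6 UMIs, of which 86 lay in FMD innate lymphoid-like cells.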

How the data were processed

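The deposited matrices hold counts, raw UMIs per gene and cell barcode, with 35280790 UMIs over 5877 barcodes in FMD and 35712762 over 6089 in ad libitum. The authors' barcodes started at 500 UMIs. The submitters' processing notes name Cell Ranger 3.1.0, CASAVA 1.8, Seurat 2.3.4 and the build GRCm38. Cells with under 200 genes, over 20% mitochondrial UMIs, or at least 5 UMIs and 0.5 per 1000 UMIs of 2 lineage panels (doublets) were removed. After first clusters and member levels had been seen, Tyrobp, Fcer1g and Cst3 were dropped from the myeloid doublet panel, an epithelial panel was added, and the fold used to name clusters was changed to a mean of log values. Clustering used scanpy 1.11.5 and leidenalg 0.10.2 (2000 variable genes without the members, 30 components, 15 neighbors, resolution 1, no batch correction), with myeloid and low-depth clusters clustered again. Clusters were named by the marker list with the highest mean log2 fold. Member genes and lists were chosen with earlier results of these data known. Named genes were the 9, list genes 2-fold apart or next to a member in role, and the 3 most similar genes. Ratios have exact conditional intervals, and a count of 0 is set to 3. The ratio code was tested on simulated counts.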

Additional observations from a re-analysis of the deposited data

Results flagged for a closer look

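Cxcl2 and Il6 were more than 2-fold apart in opposite directions in different classes, and the difference between classes was not tested. For Cxcl2 the log2 ratio of FMD over ad libitum was 1.44 in dendritic-like, 2.07 in CD8 T-like and 1.69 in other T-like cells, against −1.23 in monocyte or macrophage-like cells. Each of these lost its sign or its 2-fold size under an alternative. The dendritic-like ratio was −0.51 with a mitochondrial limit of 10% and −3.00 at resolution 2, and the other T-like ratio 0.50 with thinned cells. Without the top 3 cells, the CD8 T-like ratio was −0.61 and that of monocyte or macrophage-like cells −0.05. For Il6 it was 4.65 in innate lymphoid-like and −1.93 in B-like cells, where 1 cell held most UMIs of the higher library. Il6 passed the minimum of 20 UMIs in each of these classes only through its higher library. Its opposite directions are therefore no support for a difference between the classes.

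Barcodes removed as doublets also carried Il1b. The 167 FMD barcodes held 1760 Il1b UMIs, 739 [705, 774] CPM, and the 114 ad libitum barcodes held 635, or 407 [376, 440]. Of these barcodes, 36 in FMD and 18 in ad libitum had any Il1b, and kept cells were at 360 CPM in FMD and 350 CPM in ad libitum. With no doublet removal, monocyte or macrophage-like cells numbered 57 in FMD and 24 in ad libitum.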

How the results depend on the processing

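Of 33 ratios with at least 20 UMIs, 12 kept their sign under all alternatives that gave a value, and so did 7 of the 13 that were 2-fold apart. Monocyte or macrophage-like Tnf, Il23a, Nos2 and Cxcl1 stayed at least 2-fold lower wherever a value could be given. Only Tnf had a value under all 13 alternatives, against 12 for Il23a, 12 for Cxcl1 and 9 for Nos2. Bounds and values from under 20 UMIs are among these. Nos2 had no value without its top cell, and Il23a and Cxcl1 had none without the top 3. A mitochondrial limit of 10% put Cxcl2 in dendritic-like cells at −0.51, and 1 gene in that class was then 2-fold lower, against 0. At resolution 2, that ratio was −3.00, and 2 genes were lower in monocyte or macrophage-like and 7 in dendritic-like cells. Shares of all genes were not taken under the alternatives, so the counts given here have none beside them. With classes from marker scores per cell, Il6 in B-like cells was at 1.62 and 4 of the 9 genes kept their highest class. Thinning to 1000 UMIs before summing gave 7 values 2-fold apart, against 13, of which 1 was higher, against 4, and 3 lower genes in monocyte or macrophage-like cells, against 5. Without the top cell per gene, 1 dendritic-like gene was lower, and with a minimum of 10 UMIs, 5 neutrophil-like genes were. The genes added there, Nos2 and Cxcl1, passed only through their ad libitum UMIs and had to be counted as lower, so the rise is no support. After seeing the data, a pair of alternatives was added. Without the smaller neutrophil-like sub-cluster, Il1a was at 1.48, Tnf at 0.036 and Il23a at 0.90, and 0 genes were lower in that class. Few UMIs gave these values of Il1a, 30 in FMD and 12 in ad libitum, and of Il23a, 5 and 3. Without the top 3 cells, 8 values were apart and 1 gene was lower in monocyte or macrophage-like cells. Neutrophil-like Il23a was then at most 0.16, with no FMD UMI left, and CD8 T-like Cxcl2 at −0.61. Except where cells were left out, the cause was not tested.

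No paired analysis was possible because each diet has 1 library. With 24 ad libitum monocyte or macrophage-like cells, few cells decide a ratio, and the mice behind them are not known.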
